A study of Mus musculus with 6 samples.

Results

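The immunity-related GTPases (IRGs) are a family of interferon-inducible GTPases, and their transcripts were followed here in neonatal bone marrow sorted as LSK (negative for lineage markers, positive for Sca-1 and c-Kit), a fraction rich in haematopoietic stem cells and early progenitors. The family comprised 8 genes, Irgm1, Irgm2, Igtp, Iigp1, Gm4951, Tgtp1, Tgtp2 and Ifi47, of 37074 gene names on the array. Their probes were taken by gene name. The genes were chosen from the contrast described here, because Iigp1 and Gm4951 were already known to be among the largest differences between the groups, so the differences between the groups are given for the members as a description, without a test. Probes that carry a member's name numbered 12 and covered 7 of the 8 genes. All 12 were well above background on all 6 arrays, so no member with a probe was lost to the filter on dim probes.

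RNA of LSK cells from neonatal C57BL/6 mice at P6 to P8 was hybridised to 1-colour Agilent microarrays, 1 array per sample, with 3 control samples (Atg5w/w;VaviCre+) and 3 samples of Atg5f/f;VaviCre+ mice, written Atg5f/f;Vav. Both groups carried the Vav-iCre transgene, which is active in haematopoietic cells from mid-gestation, so they differed in the floxed Atg5 allele and not in Cre. Atg5 is part of the conjugation machinery that attaches Atg8 proteins to membranes, and the comparison asks what its loss changes in these cells. The sources do not say whether a sample was 1 mouse or a pool, so n counts arrays and the spread may be technical in part. All arrays lay on 1 slide in 1 scan. Control arrays filled 1 row of it and the other group the next, which means that genotype cannot be told apart from position on the slide. Precision is limited by the number of arrays. Levels are given as log2 signal relative to each array's 75th percentile of spots, so that 0 means the 75th percentile, and every difference is the mean of the arrays labelled Atg5f/f;Vav minus that of the control arrays on this log2 scale. In sorted cells, a change in the share of cells that express a gene and a change in RNA per cell cannot be told apart.

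IRG proteins act in cell-autonomous immunity, in which a cell defends itself against parasites and bacteria that live in a vacuole inside it. Effectors such as Iigp1 (Irga6), Tgtp1 and Tgtp2 (Irgb6), Ifi47 (Irgd) and Gm4951 bind GTP, load onto the vacuole membrane and disrupt it. Regulators, namely Irgm1, Irgm2 and Igtp (Irgm3), sit on the cell's own membranes and hold the effectors inactive there. Effectors are known to depend on the Atg5 conjugation system for correct targeting to vacuoles, and Irgm1 is known to be needed for normal haematopoietic stem cell function in mice. The genes of both kinds are induced by interferon gamma, and more weakly by type I interferon. Promoter elements known from such genes are the gamma-activated site (GAS) and the interferon-stimulated response element (ISRE), which IRF proteins bind.

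The following lines show the first 30 of the 60 bases of the probe that represents each chromosome 11 gene, the probe with the highest mean signal, since these letters define what each signal reports. Positions of the whole 60-mers are in mm9, as the array files give them.
Irgm1 (minus strand, chr11:48679069-48679128): gcattgttccactgagggacagggacaagt
Irgm2 (plus strand, chr11:58036064-58036123): gctggagaagcagggtgtgaattctctccg
Igtp (plus strand, chr11:58020927-58020986): atattcaactgtaatagcccgttccttcaa
Tgtp2 (minus strand, chr11:48871837-48871896): agaggattcatgctttcccttctcctgatc
Ifi47 (plus strand, chr11:48910402-48910461): taccacctgcctctgtgttaagagataacc

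The probes begin at base 1849 for Irgm1 and Ifi47, 1617 for Tgtp2, 1855 for Igtp and 3292 for Irgm2. No member probe shared a run of more than 10 bases with the probe of another IRG gene on the array. Probes were compared with probes and not with whole transcripts, so this does not show that each binds 1 gene only. By the RefSeq transcripts that the probes list, the exception to 1 gene per probe was Tgtp2, whose only probe lists both Tgtp1 and Tgtp2. The dimmest Irgm1 probe and the dimmer Iigp1 probe list no RefSeq transcript, so this could not be read for them. No probe carried the name Tgtp1, so the Tgtp signal below stands for the pair.

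Promoter windows in RefSeq (GRCm38.p6, 300 bases around the start of transcription) were given for 6 of the 8 members, all on chromosome 11. These were searched on both strands for an ISRE-like core, GAAANNGAAA, and for the GAS, TTCNNNGAA. The stretches before the start that hold the matches follow with the matched letters in capitals, because 4 of them carry the same arrangement.
Igtp (plus strand, chr11:58199491-58199551): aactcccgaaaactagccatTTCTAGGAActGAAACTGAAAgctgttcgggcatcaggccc
Irgm2 (plus strand, chr11:58214882-58214942): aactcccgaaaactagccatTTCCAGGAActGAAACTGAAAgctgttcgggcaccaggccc
Tgtp1 (minus strand, chr11:48992294-48992354): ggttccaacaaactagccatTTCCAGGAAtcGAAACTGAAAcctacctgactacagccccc
Tgtp2 (minus strand, chr11:49064253-49064313): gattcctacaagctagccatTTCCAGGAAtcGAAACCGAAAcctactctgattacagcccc
Irgm1 (minus strand, chr11:48871421-48871470): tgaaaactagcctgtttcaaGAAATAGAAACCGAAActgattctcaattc

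In Igtp, Irgm2, Tgtp1 and Tgtp2 a GAS stood upstream of an ISRE-like core with 2 bases between them. Counted from the start of transcription, the GAS began at -45 in Igtp, at -75 in Irgm2, -88 in Tgtp1 and -81 in Tgtp2. Irgm1 had a pair of ISRE-like cores that overlap, beginning at -30 and -24, and no GAS. Ifi47 had neither match in its window, which says only that these letters are not there. The Igtp and Irgm2 windows, which belong to neighbouring regulator genes, shared an unbroken run of 61 bases, longer than the 27 shared by Tgtp1 and Tgtp2.

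The ISRE-like core occurred in 3.44% of the 32851 promoter windows in RefSeq and the GAS in 8.3%, and both together in 0.454%. The full arrangement, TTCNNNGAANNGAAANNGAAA on either strand, occurred in 5 windows, or 0.0152%. These were Igtp, Irgm2, Tgtp1, Tgtp2 and Gm12185, a further IRG gene of the same chromosome. The Gm12185 window shared an unbroken run of 114 bases with that of Tgtp2, longer than the run shared by Igtp and Irgm2. The spacing of the arrangement was read from the members' own promoters, so the count describes the family and is no test of it. Among all genes with an ISRE-like core that were measured, 130 of 438 were called higher in the arrays labelled Atg5f/f;Vav (limma, adjusted p under 0.05) and 54 lower, with a median difference of 0.16. Among those with a GAS, 209 of 983 were higher and 126 lower, with a median of 0.03. Among all 11358 measured genes with a promoter window the figures were 2438 and 1493, with a median of 0.03. A match in a window is not evidence that a factor was bound there in these cells.

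The Atg5 probe read 1.10, 0.93 and 1.06 in the control arrays and 1.46, 1.51 and 1.74 in the arrays labelled Atg5f/f;Vav. It was therefore higher, and not lower, in the latter, by 0.54 ± 0.12 (SE, n = 3 per group, adjusted p = 0.0209 by limma). The probe begins at base 2251 of the transcript, and whether this lies in the deleted part was not determined. Its signal therefore cannot check the labels either way, and the groups are named below by their labels.

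Transcripts of all members with a probe were more abundant in the arrays labelled Atg5f/f;Vav, by 2.04 to 4.76 on the log2 scale with a median of 3.11. Over all 20778 genes measured, the median difference was -0.03. In the limma fit across all probes, 12 of 12 member probes were called higher, against 17.3% of all tested probes, and 7 of 7 member genes, against 18.7% of genes. Without control array 2 the count of genes was 6, Ifi47 being lost. All 7 had every array labelled Atg5f/f;Vav above every control array, as did 29.6% of all genes. Because the members were chosen on this contrast, nothing is read from these counts. By size of difference, Iigp1 ranked 4 of 20778 genes, Gm4951 10, Igtp 29, Tgtp2 43, Irgm2 71, Irgm1 102 and Ifi47 136.

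**Figure D1:**
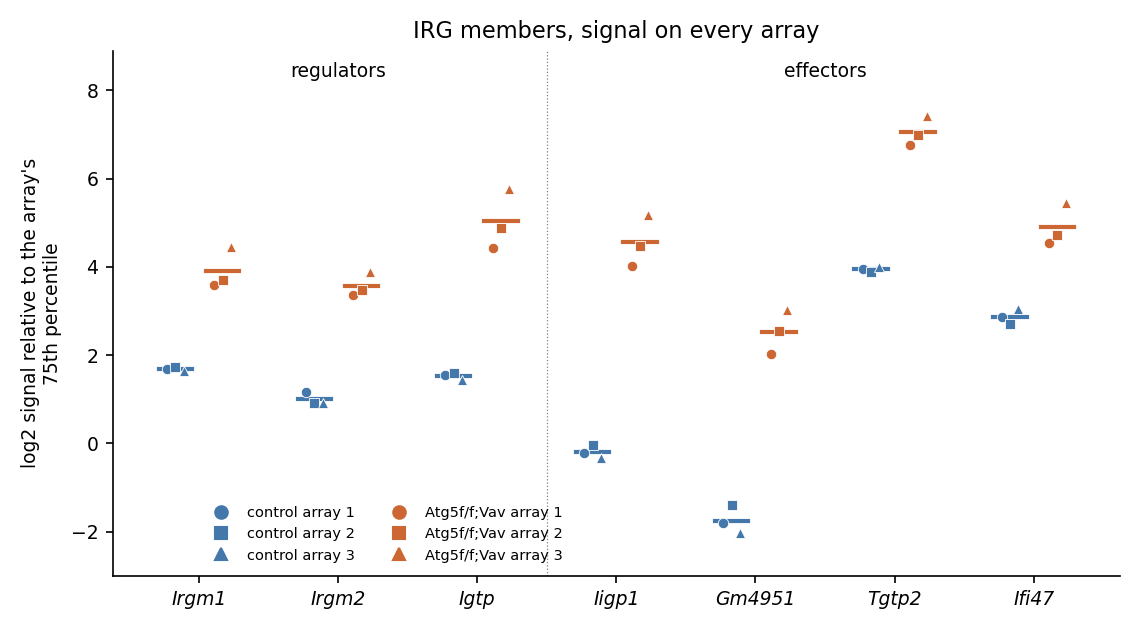
Log2 signal relative to the array's 75th percentile (vertical axis) of the representing probe of each member on each of the 6 arrays, with horizontal bars for the means of 3 arrays. Control arrays are blue and arrays labelled Atg5f/f;Vav orange, and the groups do not overlap for any of the 7 genes. Heights of different genes come from different probes and are not comparable.

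Among the regulators, Igtp differed most. Its signal was 1.55, 1.60 and 1.43 in the control arrays and 4.42, 4.89 and 5.78 in the arrays labelled Atg5f/f;Vav. The 3 control values lay within 0.17 of each other, whereas the other group spread over 1.35, all of it above the controls. The difference was 3.51 ± 0.32 (SE), an 11.4-fold change with a 95% interval of 6.72 to 19.2.

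Irgm2, the neighbour of Igtp on chromosome 11, had signals of 1.17, 0.90 and 0.91 in control arrays and 3.37, 3.47 and 3.89 in the arrays labelled Atg5f/f;Vav. The lowest of the latter lay 2.20 above the highest control. The difference of 2.58 ± 0.17 (SE) corresponds to 5.99-fold, with an interval of 4.54 to 7.91.

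Irgm1, the regulator linked to stem cell maintenance, was measured by 4 probes. On the probe that represents it, signals were 1.69, 1.72 and 1.64 in control arrays and 3.60, 3.69 and 4.44 in the arrays labelled Atg5f/f;Vav, a difference of 2.23 ± 0.23 (SE) or 4.69-fold (interval 3.24 to 6.80). The control arrays were tighter for this probe, with a range of 0.08, than for any other member. Probes that begin at bases 1784 and 1286 of the same transcript gave differences of 2.26 and 2.35. The remaining probe, designed on a separate Ensembl transcript (ENSMUST00000147151), gave a smaller difference of 1.37 ± 0.21 (SE), from -2.63, -2.29 and -3.07 to -1.49, -1.30 and -1.10. Its interval, 0.86 to 1.88, overlapped that of the representing probe, 1.70 to 2.76, only at the edge.

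Iigp1, the effector Irga6, had the largest difference of the family. Its brighter probe read -0.21, -0.05 and -0.33 in control arrays and 4.01, 4.48 and 5.19 in the arrays labelled Atg5f/f;Vav, a gap of 4.05 between the nearest arrays of the groups. The difference was 4.76 ± 0.28 (SE), or 27.0-fold with an interval of 16.9 to 43.1. A second Iigp1 probe, upstream of the first and designed on another transcript (AK172047), read -3.37, -3.41 and -3.82 against -0.46, 0.25 and 0.92 and gave 3.77 ± 0.34 (SE). The groups did not overlap on either probe.

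Gm4951 (Ifgga2), a relative of Iigp1 from the same cluster, was measured by 2 probes that gave nearly the same difference, 4.28 ± 0.28 and 4.19 ± 0.26 (SE). On the brighter, control signals were -1.81, -1.41 and -2.04 and the others 2.02, 2.56 and 3.02, which corresponds to 19.5-fold (interval 12.3 to 30.8). In control arrays Gm4951 thus lay below the 75th percentile of spots, and in each array labelled Atg5f/f;Vav above it. The same crossing was seen on the brighter Iigp1 probe, while the other still read -0.46 in array 1 of the Atg5f/f;Vav group.

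The Tgtp pair (Irgb6) read 3.95, 3.89 and 4.01 in control arrays and 6.77, 6.98 and 7.43 in the arrays labelled Atg5f/f;Vav, a difference of 3.11 ± 0.18 (SE) or 8.65-fold (interval 6.46 to 11.6). Both groups were narrow for this probe, with ranges of 0.12 and 0.66. Which of Tgtp1 and Tgtp2 supplied the signal could not be determined from 1 shared probe.

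Ifi47 (Irgd) differed least, with 2.86, 2.70 and 3.05 in control arrays and 4.54, 4.72 and 5.46 in the arrays labelled Atg5f/f;Vav. Its difference was 2.04 ± 0.25 (SE), or 4.10-fold (interval 2.74 to 6.15), and the groups were still separated by 1.49.

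The order of the differences was Iigp1, Gm4951, Igtp, Tgtp2, Irgm2, Irgm1, Ifi47. It was the same in each of the 3 arrays labelled Atg5f/f;Vav when each was set against the control mean, although these share the controls. Neighbours in the order were not separated: for every adjacent pair the 95% intervals overlapped. Regulators and effectors did not form separate blocks in this order, since effectors held both its ends.

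**Figure D2:**
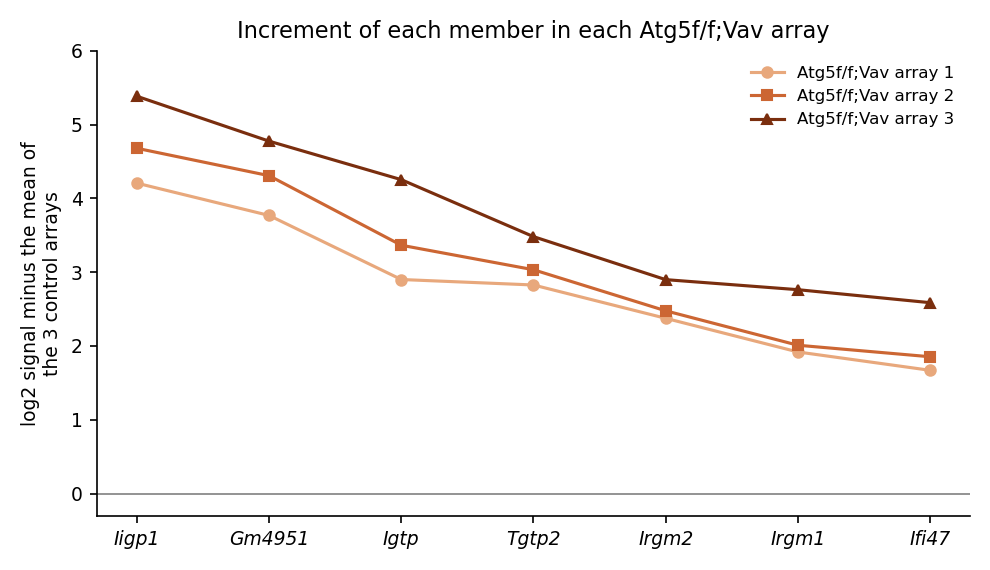
Log2 signal of each member in each array labelled Atg5f/f;Vav minus the mean of the 3 control arrays (vertical axis), with 1 line per array and the genes ordered by their mean. The lines do not cross: array 3 is highest and array 1 lowest for all 7 genes.

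Within the arrays labelled Atg5f/f;Vav the members moved together. Array 3 was the highest and array 1 the lowest for 7 of 7 genes, and the mean excess over the controls was 2.81, 3.1 and 3.73 in arrays 1, 2 and 3. The median over all genes was -0.02, 0.00 and 0.01 in the same arrays. For 7 of 7 members the range over these arrays was wider than the range over the control arrays, at 0.52 to 1.35 against 0.08 to 0.63. Array 3 also had the fewest spots well above background, 53.6% against 55.8% and 56.7% in the other 2 of its group and 59.4% to 59.9% in the controls. It also had the highest signal of the erythroid gene Car1, 3.98 against 1.53 and 2.64. The part of these in the spread of the members was not tested.

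Among the 5 genes other than the members whose signal over the 6 arrays was most like the mean of the members (Pearson's r, 18375 genes compared) were an unnamed Ensembl transcript (ENSMUST00000172583, r = 0.9995), a non-coding locus known by its coordinates only (r = 0.9988), the RNA-binding protein gene Zcrb1 (r = 0.9988) and Gm12250 (r = 0.9986), itself an IRG gene. The groups lie far apart for the members, so r is set mainly by the difference between the groups, and r is given without a test. Gm12250 differed by 2.87, in the range of the members, while Zcrb1 followed the same pattern with a difference of only 0.35. The members' own r with their mean ran from 0.988 for Ifi47 to 0.999 for Iigp1.

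The other IRG genes did not all move with the members. Of 9 listed, 7 could be tested, of which 2 were called higher, 2 lower and 3 neither (limma, background 18.7% higher and 15.3% lower), with a median of -0.37. That median is the value of 9930111J21Rik1, and 1 of the 2 lower calls is that of Gm4841. Both genes had probes that disagreed in direction, given below. Gm12250 (Irgb10), an effector that also attacks bacteria, read -0.60, -0.52 and -0.54 against 1.99, 2.09 and 2.88 and rose by 2.87 ± 0.24 (SE, adjusted p = 0.00511 by limma). Its second probe gave 3.29. Gm12185, the gene whose promoter shares the GAS and ISRE-like arrangement with 4 members, was not well above background on any control array and was so on all 3 of the others. It rose at least 3.16-fold (adjusted p = 0.00731 by limma). Gm5431, which lies between Irgm1 and Gm12185, went the other way, from -3.51, -3.42 and -3.58 to -3.90, -4.14 and -4.07, and fell by 0.53 ± 0.12 (SE, adjusted p = 0.0192 by limma). This call was lost without control array 1, control array 2 or array 2 of the other group, with adjusted p up to 0.0799.

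The remaining genes of the family were not called, too dim, or had probes that disagreed. F830016B08Rik had a difference of -0.50 (adjusted p = 0.0933 by limma) with overlapping groups, and Irgq, a more distant relative, one of -0.09 (adjusted p = 0.616 by limma). Irgc1, known from testis, and 9930111J21Rik2 were not well above background on any array. For 9930111J21Rik1 the probes disagreed. The brighter, whose accessions also name Psme2b, gave -0.37 (adjusted p = 0.0819 by limma), and the dimmer, whose accessions also name Gm5431, gave 1.26 (adjusted p = 0.0163 by limma). Gm4841 (Ifgga3) also had 2 discordant probes. The brighter was called lower by 0.60 (adjusted p = 0.0467 by limma), but 31 of its 60 bases are a dinucleotide repeat and the call held in only 2 of 6 fits with an array left out (lost without array 1 or 3 of the Atg5f/f;Vav group or without control array 1 or 2). The other read -4.93, -4.78 and -4.43 against -0.25, 0.00 and 1.21 and rose by 5.03 ± 0.37 (SE, adjusted p = 0.00445 by limma), with 1 of 3 control arrays well above background. With this probe in place of the repeat, chosen after its values were seen, 3 of 7 genes were called higher. A probe named Iigp1b, also noticed only afterwards, was not well above background on any array.

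**Figure D3:**
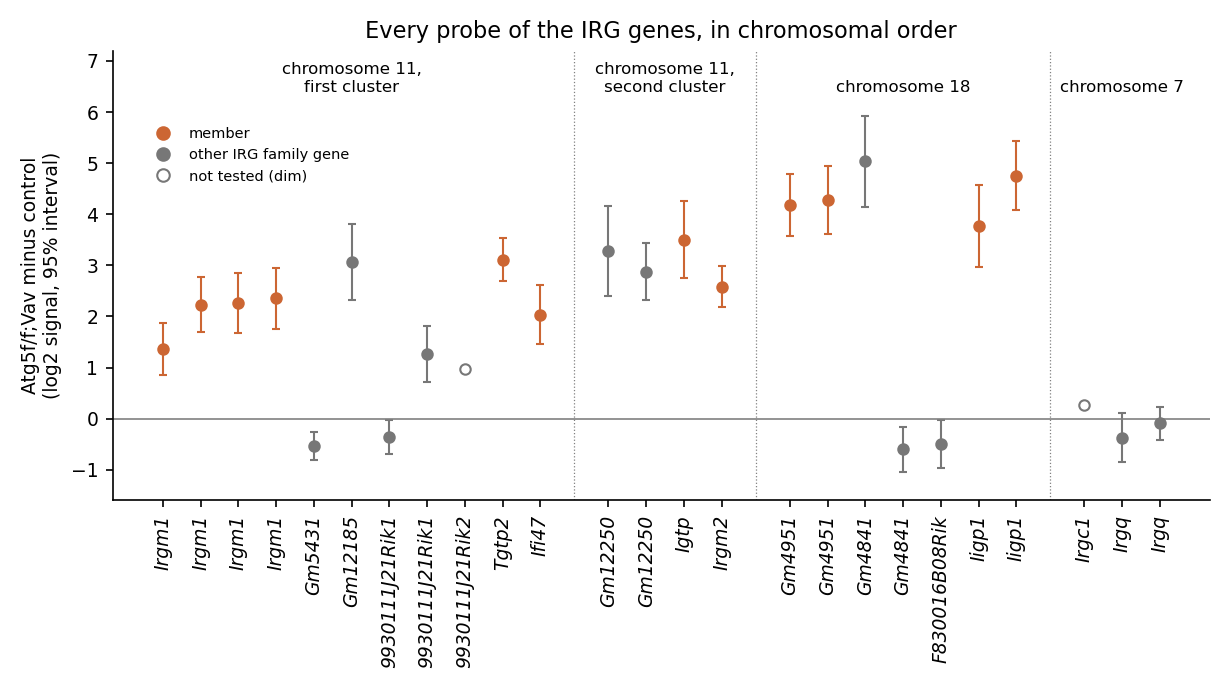
Difference between the groups on the log2 scale (vertical axis) for every probe of the IRG genes, ordered along the chromosomes, with 95% intervals from limma. Members are orange and other family genes grey, and open circles are probes too dim to test. Members stand well above 0. Other genes of the first chromosome 11 cluster and of chromosome 18 lie on both sides of 0. Gm12185 and 1 probe each of 9930111J21Rik1 and Gm4841 are among those above it. The point of Gm12185 is a fitted value, not its bound.

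The IRG genes lie in clusters. On chromosome 11 (mm9), the probes of 7 genes fall within 235 kb (chr11:48675495-48910461), from Irgm1 by way of Gm5431, Gm12185, 9930111J21Rik1, 9930111J21Rik2 and Tgtp2 to Ifi47. Irgm1, Tgtp2 and Ifi47 were higher by 2.04 or more and Gm12185 at least 3.16-fold, while the Gm5431 probe gave -0.53, a call that was lost when any 1 of 3 arrays was left out, and a 9930111J21Rik1 probe that also lists Gm5431 gave 1.26. A second group of 3 genes within 34.3 kb (chr11:58001797-58036123), Gm12250, Igtp and Irgm2, differed by 2.58 to 3.51 on their brightest probes. On chromosome 18, the probes of Gm4951, Gm4841, F830016B08Rik and Iigp1 span 146 kb (chr18:60405865-60552212), and those of Gm4951 and Iigp1 at its ends were higher by 3.77 to 4.76. The sequences of that chromosome are not printed here.

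Interferon ligand genes that could be tested did not rise with the family. Ifng, the gene of interferon gamma, the main inducer of IRGs, was not well above background on any of the 6 arrays, and neither was Ifnb1, the gene of interferon beta. Of 22 genes with a probe in the ligand list, which also holds the interleukin genes Il12a, Il18 and Il27, 11 were well above background on no array. None of the 10 tested was called higher by limma at an adjusted p under 0.05 (background 18.7%). The largest positive difference was 0.13, for Ifna5. The methods' t-test at an unadjusted p under 0.05 called 1 of the 10, against 13541 of all 32074 probes. The largest differences were negative: Il12a, a subunit of the cytokine that drives interferon gamma production, at -0.90 (adjusted p = 0.0585 by limma), Il18 at -0.59 (0.16), Ifna11 at -0.53 (0.12) and Ifnab at -0.50, the last of which was called lower (adjusted p = 0.0224 by limma). The Ifnab call held in 2 of 6 fits with an array left out, being lost without control array 1, 2 or 3 or array 2 of the other group, and its second probe gave -0.08 (adjusted p = 0.87 by limma). LSK cells are not the usual source of these ligands, and interferon made by other cells was not measured.

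Neither receptor gene of interferon gamma was called, whereas genes downstream were. Ifngr1, the ligand-binding chain, read 2.99, 3.16 and 3.20 against 3.32, 3.52 and 3.69, a difference of 0.39 with a 95% interval of 0.07 to 0.71 (adjusted p = 0.0625 by limma). Ifngr2, the signalling chain, differed by -0.01, with an interval of -0.28 to 0.27. Irf1, the gene of an interferon-induced transcription factor, rose by 1.51 ± 0.14 (SE, adjusted p = 0.00547 by limma), from 3.18, 3.07 and 3.35 to 4.6, 4.63 and 4.92.

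In all, 9 of 14 interferon gamma signalling genes were called higher (background 18.7%) and none lower, with a median of 1.04. Among the largest rises were those of Nlrc5, the activator of MHC class I genes, by 2.56 ± 0.14 (SE, adjusted p = 0.00236 by limma), and of the transcription factor gene Batf2, by 1.85 ± 0.23 (SE, adjusted p = 0.0103 by limma). The kinases Jak1 and Jak2 were not called, at -0.22 (adjusted p = 0.163 by limma) and 0.23 (0.184). Without control array 1 the count of calls in this list fell to 4, and without control array 2 to 5. The count therefore rests on these arrays, as do calls at large: in the same fits, higher calls over all probes fell from 5540 to 188 and 155.

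**Figure D4:**
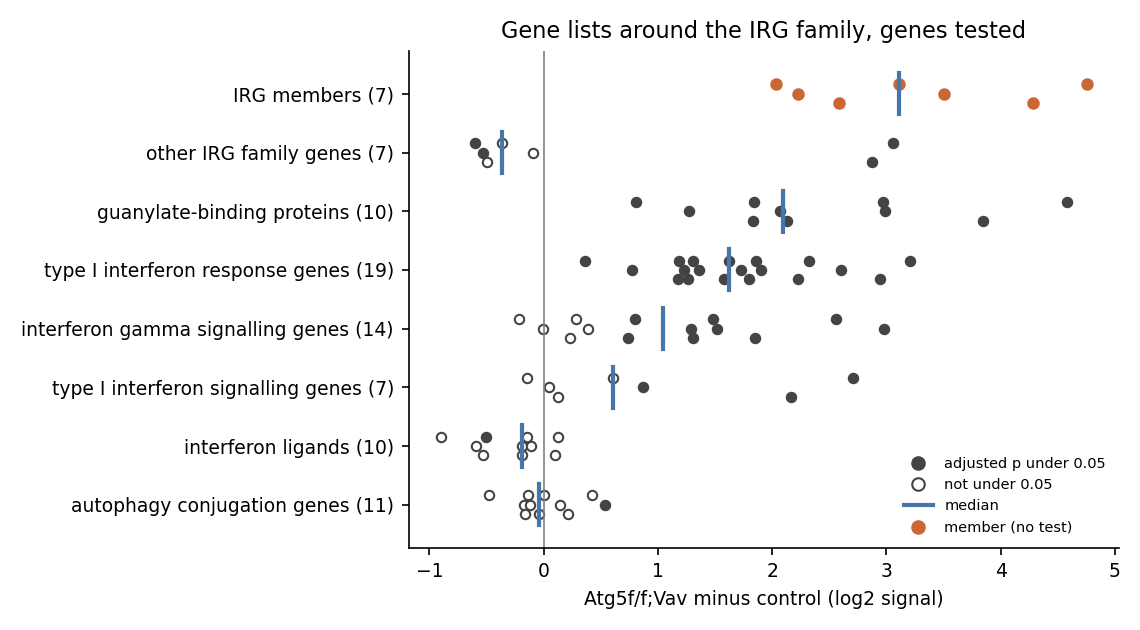
Difference between the groups on the log2 scale (horizontal axis) of each tested gene in 8 gene lists, with the number tested in brackets and the median as a blue bar. Filled grey circles have an adjusted p under 0.05 by limma, open ones do not, and members, in orange, carry no test. The points of Gm12185 and Ifit3b are fitted values, not their bounds. Guanylate-binding proteins and type I response genes lie right of 0, while ligands and autophagy conjugation genes lie around it.

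The guanylate-binding proteins (GBPs), the other large family of interferon-induced GTPases, which act on the same vacuoles, were higher in 10 of 10 tested genes (limma, background 18.7%), with a median of 2.10. Gbp6 rose by 4.58 ± 0.40 (SE, adjusted p = 0.00547 by limma), Gbp4 by 3.84 ± 0.32 (0.00511), Gbp9 by 2.99 ± 0.34 (0.00865) and Gbp2 by 2.97 ± 0.39 (0.0114). The smallest rise was that of Gbp10, 0.81. A second probe of Gbp5 gave -0.45 (adjusted p = 0.133 by limma) where the representing one gave 1.27. With control array 1 left out, 6 of the 10 were still called, and with control array 2 left out 4. Higher calls over all probes numbered 188 and 155 in these fits, against 5540 with every array. The gene that was not tested, Gbp2b, was well above background only on control array 3 and on array 3 of the other group, at -3.40 and -0.01, and lay between -7.07 and -6.83 on the other 4 arrays.

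Genes known as targets of type I interferon also rose: 19 of 19 tested were called higher (background 18.7%), with a median of 1.62. Genes measured in both groups ran from 0.36 to 2.94, the latter for Isg15. Among the largest were Ifit3b, which was not well above background on any control array and rose at least 6.11-fold (adjusted p = 0.0138 by limma), the ubiquitin-like modifier gene Isg15, by 2.94 ± 0.37 (SE, adjusted p = 0.0112 by limma), Ifit3, by 2.60 ± 0.33 (0.0112), and Oasl1, by 2.32 ± 0.27 (0.00922). The lists overlap in biology, since many of these genes respond to either interferon. Without control array 1, 10 were called, and without control array 2, 12, beside 188 and 155 probes called higher in all. Among 7 genes of type I signalling, 3 were called higher (background 18.7%). These were Usp18, a brake on the receptor, by 2.71 ± 0.29 (SE, adjusted p = 0.00805 by limma), Irf7, by 2.17 ± 0.21 (0.00606), and Stat2, by 0.87 ± 0.16 (0.0166), whose second probe gave 0.23 (0.415). The Stat2 call was lost without control array 1 or 2. Tyk2 had a difference of 0.60 (adjusted p = 0.0535 by limma), and the receptor genes Ifnar1 and Ifnar2 differed by -0.14 (0.481) and 0.05 (0.767). A pair of the other Ifnar1 probes was called lower, at -0.43 (adjusted p = 0.0357 by limma) and -0.41 (0.0319), but each call held in only 1 of 6 fits with an array left out.

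The conjugation genes that targeting of IRG effectors is known to need were mostly not called. Of 11 genes, 1, Atg5 itself, was called higher and none lower (background 18.7% and 15.3%), and the median was -0.04. The Atg5 call was lost without control array 1 or 2, with adjusted p up to 0.0836. The next largest differences were those of Atg16l1, -0.47 (adjusted p = 0.0584 by limma), Atg3, 0.42 (0.0596), and Gabarap, 0.21 (0.19). The probes of Atg16l1 differed in sign, another giving 0.26 (0.0924).

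Markers of the sorted cells and of other cell types were read beside the family. All 10 LSK markers were well above background on all 6 arrays. The gate gene Ly6a, which encodes Sca-1 and is itself interferon-inducible, rose by 1.57 ± 0.15 (SE, adjusted p = 0.00623 by limma), from 1.56, 1.31 and 1.53 to 2.89, 2.91 and 3.30. The stem and progenitor genes Hoxa9 and Meis1 fell by 1.17 (adjusted p = 0.0206 by limma) and 0.78 (0.0484), and Flt3 differed by -0.87 (0.0675). A second Flt3 probe was called lower, at -0.85 (adjusted p = 0.0138 by limma), but not without control array 1 or 2. The gate gene Kit was not called on its representing probe. Its other probes were called, and those calls held in 4 and 3 of 6 fits with an array left out. The Hoxa9 call was lost without control array 1 or 2, and the Meis1 call without control array 1, 2 or 3 or array 2 of the other group. Because LSK cells were sorted on Sca-1, a difference in what the gate collected and a difference within the cells cannot be told apart.

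Markers of cell types that respond to or make interferon were read in the same way. Linear signals were also summed over each list. Such a sum is set mainly by its brightest genes, so it cannot show whether the share of a cell type differed. Among 10 macrophage genes, Cd163 and Mrc1 were not well above background on any array, and the summed linear signal of the list (in units of the array's 75th percentile) was 4.96 to 7.34 in control arrays and 6.90 to 7.12 in the others. Of its 6 tested genes, 1, Vcam1, was called lower by limma, at -1.42 (background 15.3%). The Vcam1 call held in 6 of 6 fits with an array left out. Among 11 T and NK cell genes, Cd3g, Cd8a and Ncr1 were not well above background on any array, and the sums were 7.83 to 11.7 and 10.9 to 12.1. Xcr1 and Cd209a of the 8 dendritic cell genes were likewise not above background, and sums for that list were 173 to 205 and 166 to 185. Of its genes, Bst2, which is also interferon-inducible, was called higher, by 1.23 (adjusted p = 0.0128 by limma), and Clec9a differed by 1.94 without overlap (0.0986). B cell sums were 8.87 to 11.8 and 10.3 to 17.1, with a median difference of 0.68, and 1 of 7 genes, Cd79a, was called higher, by 0.95 (adjusted p = 0.0227 by limma). The Bst2 and Cd79a calls were both lost without control array 1 or 2, and with a replicate block the B cell list had 4 calls.

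Signals of neutrophil, erythroid and stromal markers also differed between the groups. Of 8 neutrophil genes, 7 were called lower (background 15.3%) and Ly6g higher, and the summed signal was 78.2 to 163.5 in control arrays against 37.8 to 67.2. The calls of Camp, Ngp and S100a8 held in only 1 of 6 fits with an array left out. The sum of the 8 erythroid genes was 233 to 517 against 89.9 to 138, with a median difference of -0.35. Of these genes 3 were called higher, Car1 among them, and 3 lower, among them the globin gene Hba-a1 (background 18.7% and 15.3%). On the representing probes, every one of these neutrophil and erythroid calls was lost without control array 1, and every one but that of Retnlg without control array 2. Second probes of Car1, Epor and Klf1 were still called without control array 1, but not without control array 2. In these fits, calls over all probes fell from 11024 to 330 and 251. Of 5 tested stromal genes, 3 were called lower (background 15.3%), and the sum of the 8 stromal genes was 9.70 to 39.7 in control arrays against 5.40 to 8.57. The stromal collagen gene Col1a1, whose call held in 1 of 6 fits with an array left out, was high in control arrays 2 and 3. It read -4.14, 3.23 and 2.95 in the controls and -5.23, -5.16 and -5.49 in the others. The control values of each member lay within 0.63 of each other over the same 3 arrays. The part of the neutrophil, erythroid and stromal genes in the differences of the members was not tested.

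The median difference of the members was between 2.93 and 3.26 with each of the 6 arrays omitted in turn. Over those fits, Iigp1 ranged from 4.44 to 5.03 and Ifi47 from 1.76 to 2.22. Scaling moved all genes together. With the 75th percentile taken over probes detected on all arrays, the median difference of all probes shifted by -0.21 and the split of calls from 5540 higher and 5484 lower to 3369 and 10089, while the members' median was 2.91.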

How the data were processed

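The authors deposited 1 Agilent Feature Extraction 12.0.3.1 file per array, from which the background-corrected intensity was used, and a table of normalised signal. That deposited signal is the intensity divided by a constant close to the 75th percentile of every spot on that array, and it served as an alternative. Here, log2 intensity minus the 75th percentile over the 59305 non-control spots of each array was computed. Between 64 and 81 outlier spots an array were dropped, spots of a probe were averaged, and none was saturated. Of 56605 probes, 32074 passed the filter (above background on 3 or more of 6 arrays) and entered a linear model per probe with moderated 2-sided tests (limma 3.58.1, run under R 4.3.3), whose p-values were adjusted over all of them by Benjamini-Hochberg with a threshold of 0.05. Intervals are its 95% intervals. The steps were tested on simulated data.

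Groups follow the genotype labels. A gene is represented by its tested probe of highest mean signal. A probe not well above background on any array of a group has only a bound there: the bright group's mean is set against, per dim array, the higher of the probe's own signal and the lowest signal among probes above background. The members and the 15 other lists were chosen with earlier results of these data known, so no list was tested as a set. Named are all members, all other IRG genes, at most 4 genes of each other list by size of difference, fixed receptor and signalling genes, and the 5 genes most like the members; second probes that disagree were added after their values were seen. A gene that this rule would name is not reported here, though it stays in the counts. Promoters are from RefSeq (GRCm38.p6) and were not mixed with the probes' mm9 positions. Alternatives were normexp (offset 50), quantile normalisation, a percentile over detected probes, the deposited signal, no filter or a filter on all 6 arrays, outlier spots kept, an intensity trend, the methods' t-test, a replicate block, the mean of all probes, and each array left out.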

Additional observations from a re-analysis of the deposited data

How the results depend on the processing

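The differences of the 7 members stayed positive under every alternative, the lowest being 1.72 for Ifi47, and their median ran from 2.82 (quantile normalisation) to 3.26. The mean of all probes gave Iigp1 4.26, and quantile normalisation gave Tgtp2 2.82. With the methods' t-test, 13541 of 32074 probes had an unadjusted p under 0.05, 7 members, 10 GBPs and 19 type I response genes among them, but after adjustment it called 0 probes and therefore 0 genes of every list, with a lowest adjusted p of 0.0506; limma called 11024, of which 5540 were higher and 5484 lower. Without the filter on dim probes these counts were 4538, 2324 and 2214, and with the percentile over detected probes 3369 were higher and 10089 lower. With each array left out, calls ran from 251 to 10304 in all, 155 to 4962 higher and 96 to 5342 lower. Over the same fits, members called ran from 6 to 7, GBPs from 4 to 10, interferon gamma signalling genes from 4 to 10, type I response genes from 10 to 18, type I signalling genes from 2 to 4, and other IRG genes called higher stayed at 2. The lower calls of Gm5431 and Gm4841 held in 3 and 2 of these 6 fits. Ifi47 is the member lost, without control array 2. The low ends came without control array 1 (330 probes in all, 188 higher, 142 lower) or control array 2 (251, 155 and 96). A filter on all 6 arrays left 1 other IRG gene called higher, because Gm12185 was no longer tested, and Gm4841 by its probe without a repeat, an alternative chosen after seeing the data, turned Gm4841 from -0.60 to 5.03 and made it 3. The deposited signal, normexp, the intensity trend and outlier spots kept moved no count of calls by over 1.5 times.

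Replicate numbers did not pair the samples: deviations of samples with the same number correlated at -0.07, 0.19 and 0.11, and those of other pairs at -0.30 to 0.13. With the replicate block, 10173 probes were called and all 7 members, 10 GBPs and 17 of the 19 type I response genes remained, and LSK marker calls went from 3 to 2. No block for slide or scan could be fitted, with 1 of each.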
